A study of Mus musculus with 60 samples.

Results

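The change in nascent transcription between 2 h and 4 h of RAD21 loss was measured in neural progenitor cells (NPC) by setting the 2 libraries of 4 h auxin treatment directly against the 2 libraries of 2 h, with no control library in the contrast. The genes described are those with a mean count above 20 in either group, 15942 of the 27665 in the count table, and the 4 libraries are 4 of 60 in the series. The cells were mouse RAD21-AID NPC, differentiated through epiblast stem cells from an embryonic stem cell (mESC) line whose RAD21 carries an auxin-inducible degron. Indole-3-acetic acid (IAA, an auxin) at 500 uM was given for 2 h or 4 h, newly made RNA was labelled with 0.5 mM 5-ethynyl uridine for 20 min, and the labelled RNA was sequenced (EU-seq). Both groups therefore carry the degron and received the same agent, and they differ in its duration. The 2 untreated libraries of the same cells, 2 libraries of 1 h IAA and 2 of 1 h A-485 at 10 uM, which blocks acetylation of histones by CBP and p300, are used only where named, as are 24 mESC libraries of a further experiment. The NPC libraries given IAA all carried the degron, so effects of IAA itself and of RAD21 loss cannot be told apart. The labels do not say whether replicates came from separate cultures, so p-values measure the spread between these libraries, which may be technical.

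RAD21 is the subunit that closes the cohesin ring. Cohesin extrudes loops of chromatin, which brings enhancers and promoters of the same domain together, and it also holds sister chromatids together until division. Because EU-seq reads RNA made within a short pulse, it follows synthesis rather than the pool of stable RNA. Genes that respond only late may lie downstream of the proteins whose genes changed first, and a first response may also fade, so a direct comparison of a later with an earlier time separates what continued, what began and what receded.

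The libraries held 18620373 and 10755624 counts at 2 h and 18169292 and 16946777 at 4 h. The 2 h pair was less alike than the others: the SD of the log2 ratio between replicates over expressed genes was 0.203 at 2 h, 0.116 at 4 h and 0.124 in the controls, and 2 h replicate 1 correlated with the 4 h libraries (r = 0.9938 on log2 CPM) as closely as with its own partner (r = 0.9935). Of the 454 genes called below, all 454 were also called without 2 h replicate 2 and all 453 that could be tested were called without 2 h replicate 1. Those fits take the spread from the closer 4 h pair and call 1834 and 2951 genes, so they do not show that the 454 are stable. Rad21 RNA stood at 210 and 220 CPM (counts per library, scaled to the same total) at 2 h and 212 and 209 CPM at 4 h, against 185 and 197 CPM in the controls. The degron acts on the protein, so these RNA levels do not check its loss. Of the 12 NPC markers listed, 11 were in the table and all 11 averaged at least 1 CPM. Their summed levels were 1750 to 1870 CPM at 2 h and 1730 to 1760 CPM at 4 h. The largest was Vim, at 698 and 801 CPM at 2 h. Pax6 was then at 13.3 CPM in both libraries and Hes5 at 1.02 and 1.41 CPM. Of 9 pluripotency markers, 4 averaged at least 1 CPM. Their summed levels were 15.5 to 19.2 CPM at 2 h and 12.8 to 15.6 CPM at 4 h. Pou5f1, a defining pluripotency gene, was at 0.321 to 0.692 CPM in these libraries, and Klf4 at 5.08 to 7.72 CPM. The summed astrocyte markers were at 218 to 242 CPM at 2 h and 167 to 173 CPM at 4 h, a difference that lay in Gja1, while Aldh1l1 (38.4 and 41.1 CPM, then 36.5 and 41.6 CPM) did not separate the groups. Those of neural crest and mesenchyme were at 1780 to 2340 CPM and 1600 to 1640 CPM, with controls at 1700 to 1820 CPM. Fewer cells of a type and less RNA made per cell cannot be told apart in such bulk samples, and the part of these cell types in the results below was not tested.

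From 2 h to 4 h, the lists with the most downregulated genes were those of guidance cues and their receptors (11 of 33) and of matrix proteins (7 of 30), and the upregulated genes included 6 of 29 immediate early genes and 7 of 27 targets of the antioxidant factor NRF2. Of the 15942 genes, 454 (2.85%) were called at an adjusted p under 0.05 (edgeR quasi-likelihood test, Benjamini-Hochberg over all genes), 132 of them upregulated (0.828%) and 322 downregulated (2.02%). The list counts here and below are to be read beside these shares, and beside 14.5% downregulated among genes over 240 kb. The changes were small, with a median of 1.4-fold among the upregulated and 1.46-fold among the downregulated genes. At least 2-fold changes were called for 5 upregulated (0.0314%) and 46 downregulated (0.289%) genes. Protein-coding genes made up 116 of the 132 and 313 of the 322. Long intergenic noncoding RNAs made up 8.33% of the upregulated genes, 1.24% of the downregulated genes and 5.33% of all genes tested. The size of the called sets depended on the 4 h libraries, since 247 genes were called without 4 h replicate 1 and 285 without 4 h replicate 2, of which 208 and 252 were among the 454. Where a gene whose values are given below was refitted without each 4 h library and lost its call, that is given beside it.

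**Figure D1:**
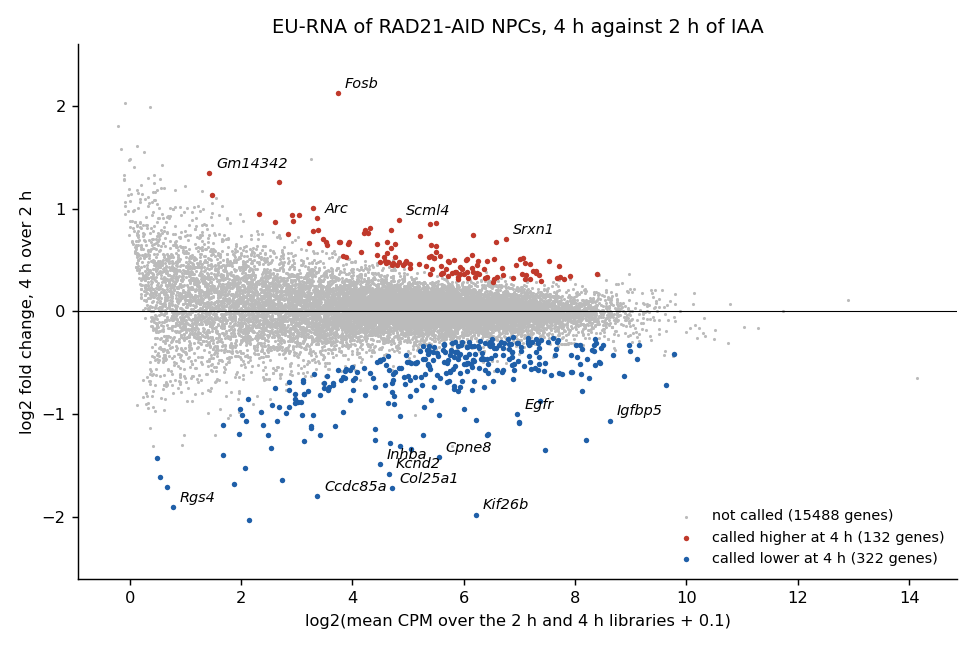
Each point is a gene, placed by its mean level on the log2(CPM + 0.1) scale (x axis) and its log2 fold change of 4 h over 2 h (y axis). The 132 upregulated genes are red, the 322 downregulated genes are blue, and the rest are grey. More blue than red points lie beyond a 2-fold change (46 and 5), while the single largest change each way is similar in size, with Gm48749 at -2.03 and Fosb at 2.12.

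The decrease with the smallest p was that of Kif26b (chr1:178529125-178939200, mm10), which encodes a kinesin-family protein of noncanonical Wnt signalling. Its level was 123 and 123 CPM in the controls, 123 and 113 CPM at 2 h, and 30.9 and 28.9 CPM at 4 h. The 2 h libraries thus lay at or near the level of the controls, and both 4 h libraries lay far below. The direct change was a log2 fold change of -1.98 ± 0.08 (SE, n = 2 and 2, adjusted p = 3.04e-07), or 3.93-fold lower. The lincRNA Gm48749 had the same shape and a slightly larger fold at a low level, with 8.2 and 5.62 CPM at 2 h and 1.82 and 1.61 CPM at 4 h (log2 fold change -2.03 ± 0.25, adjusted p = 0.0013). Unc5c, a netrin receptor, was at 73.9 and 56 CPM at 2 h around control levels of 65.9 and 61.9 CPM, and at 39.7 and 42.1 CPM at 4 h (-0.67 ± 0.11, adjusted p = 0.0066). Vcam1, a cell adhesion molecule, went from 48.1 and 47 CPM to 30.7 and 31.2 CPM (-0.61 ± 0.08, adjusted p = 0.0017). Smad6, an inhibitor of BMP signalling, was at 40.4 and 42 CPM at 2 h, within the range of the controls (39.3 and 41.8 CPM) or next to it, and at 28.3 and 29.2 CPM at 4 h (-0.51 ± 0.08, adjusted p = 0.0066, and 0.051 without 4 h replicate 1). In all these genes the 2 h and 4 h libraries did not overlap. For genes named by the size of their change this was a condition of choice. The share of all genes without overlap was not counted.

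More of the decreases continued a fall that had started by 2 h. Ccdc85a (chr11:28385692-28584324) went from 64.9 and 64.8 CPM in the controls to 15.3 and 16.4 CPM at 2 h and 4.76 and 4.21 CPM at 4 h, 3.48-fold lower between the last (log2 fold change -1.80 ± 0.15, adjusted p = 7.03e-05). Col25a1 (chr3:130180891-130599877), a membrane collagen of neurons, was at 77 and 74.6 CPM in the controls, 40.8 and 39.3 CPM at 2 h, and 11.4 and 12.8 CPM at 4 h (-1.72 ± 0.10, adjusted p = 6.92e-06). Cpne8 (chr15:90487483-90679432), a copine that binds membranes in response to calcium, dropped from 340 and 321 CPM to 65.3 and 70.9 CPM and then to 25.8 and 24.6 CPM (-1.42 ± 0.08, adjusted p = 6.92e-06). Each step lay outside the range of the replicates. Kcnd2, a subunit of A-type potassium channels, was at 83.2 and 79 CPM, then 40.8 and 34 CPM, then 11.2 and 13.9 CPM (-1.58 ± 0.13). Grin2a, a subunit of NMDA receptors, was at 8.84 and 11 CPM at 2 h and 2.62 and 3.63 CPM at 4 h (-1.64). Cntnap4 was at 5.74 and 5.15 CPM and then 1.6 and 1.79 CPM, and Shisa9 at 5.63 and 6.56 CPM and then 2.52 and 1.61 CPM. These 4 genes were chosen among called genes whose 2 h and 4 h libraries did not overlap.

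Some growth factor and receptor genes fell further. Inhba (chr13:16011851-16031621), which encodes the subunit of activin A, was at 64 and 69.9 CPM in the controls, 31.9 and 34.2 CPM at 2 h, and 11.6 and 11.8 CPM at 4 h, 2.80-fold lower (log2 fold change -1.49 ± 0.11, adjusted p = 2.03e-05). At 19.8 kb it was the shortest of the genes plotted by library that fell at both times. Egfr (chr11:16752211-16918158), the receptor for epidermal growth factor, on which cultured NPC depend, was at 427 and 426 CPM, then 173 and 159 CPM, then 82.2 and 82.8 CPM (-0.999 ± 0.07, adjusted p = 1.62e-05). Among the 33 growth factor and receptor genes tested, 5 were downregulated and 1 upregulated (Pdgfrb, 61.2 and 66.5 CPM at 2 h and 89.6 and 88.4 CPM at 4 h), with a median log2 fold change of -0.121 against 0.0108 over all genes. That median was -0.02 with the length trend removed and -0.04 without 2 h replicate 1. In the TGF-beta and BMP list, 6 of 28 fell and 1 rose (median -0.07). Beside Inhba and Smad6, the members that fell included Ltbp1, which anchors latent TGF-beta (41.2 and 43.9 CPM, then 26.5 and 27.5 CPM), and the ligand Tgfb2 (91.8 and 98.5 CPM, then 68.2 and 69 CPM). Inhbb, at 4.02 and 4.5 CPM at 2 h and 1.93 and 1.96 CPM at 4 h, lost its call without either 4 h library, and Id3 without replicate 2 (adjusted p = 0.11).

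Guidance genes gave the most calls of any list in the main fit. Of 33 genes for semaphorins, netrins, Slits and their receptors, 11 were downregulated and none upregulated, with a median of -0.23. Over all genes 2.02% were downregulated, and 14.5% of those over 240 kb. With DESeq2 8 were downregulated, as were 8 with the length trend removed (median -0.18). The netrin gene Ntn1 was at 390 and 405 CPM in the controls, 276 and 317 CPM at 2 h, and 189 and 202 CPM at 4 h (-0.59 ± 0.08, adjusted p = 0.0019). Plxna4, a semaphorin receptor subunit, went from 29.1 and 29 CPM to 11.4 and 14.7 CPM (-1.15), with both 4 h libraries below both 2 h libraries. Slit3 (364 and 325 CPM, then 239 and 258 CPM, -0.46 ± 0.08) lost its call without 4 h replicate 1 (adjusted p = 0.15). The list's count was 3 without that library. Of 19 Eph receptor and ephrin genes, 4 fell and none rose (median -0.06, and 0.01 without 2 h replicate 2). Ephb1 (chr9:101922128-102354693) was at 98.9 and 96.6 CPM, then 48.3 and 46.8 CPM, then 18.9 and 18.5 CPM (-1.34 ± 0.09, adjusted p = 1.28e-05). Epha3 went from 99.7 and 78.7 CPM to 50.4 and 54.6 CPM (-0.77) and Epha7, which was at 179 and 177 CPM in the controls, from 179 and 141 CPM to 108 and 112 CPM (-0.53).

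Of 30 matrix genes, 7 were downregulated and none upregulated (median -0.20). That median was -0.31 without 2 h replicate 1 and -0.11 without 2 h replicate 2. Col12a1 (chr9:79598991-79718518), a collagen that associates with fibrils, was at 262 and 257 CPM in the controls, 174 and 172 CPM at 2 h, and 79.9 and 82.4 CPM at 4 h, 2.12-fold lower (-1.08 ± 0.06, adjusted p = 6.92e-06). Lama2, a laminin chain, went from 92.5 and 75.2 CPM to 56.1 and 59.3 CPM (-0.54 ± 0.09). Fn1, fibronectin, was at 356 and 463 CPM at 2 h and 292 and 281 CPM at 4 h (-0.50 ± 0.10, adjusted p = 0.022), and its adjusted p was 0.056 without 4 h replicate 2. Igfbp5, which binds insulin-like growth factors, was at 574 and 611 CPM in the controls, 413 and 656 CPM at 2 h, and 258 and 248 CPM at 4 h (-1.06 ± 0.16, adjusted p = 0.0035). Its 2 h libraries lay on either side of the controls. Col1a1, a mesenchymal marker, was at 781 and 1210 CPM at 2 h and 743 and 719 CPM at 4 h and was not called, and none of the neural crest and mesenchyme markers was. In Fn1, Igfbp5 and Col1a1 alike, 2 h replicate 2 was the higher of the 2 h pair.

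**Figure D2:**
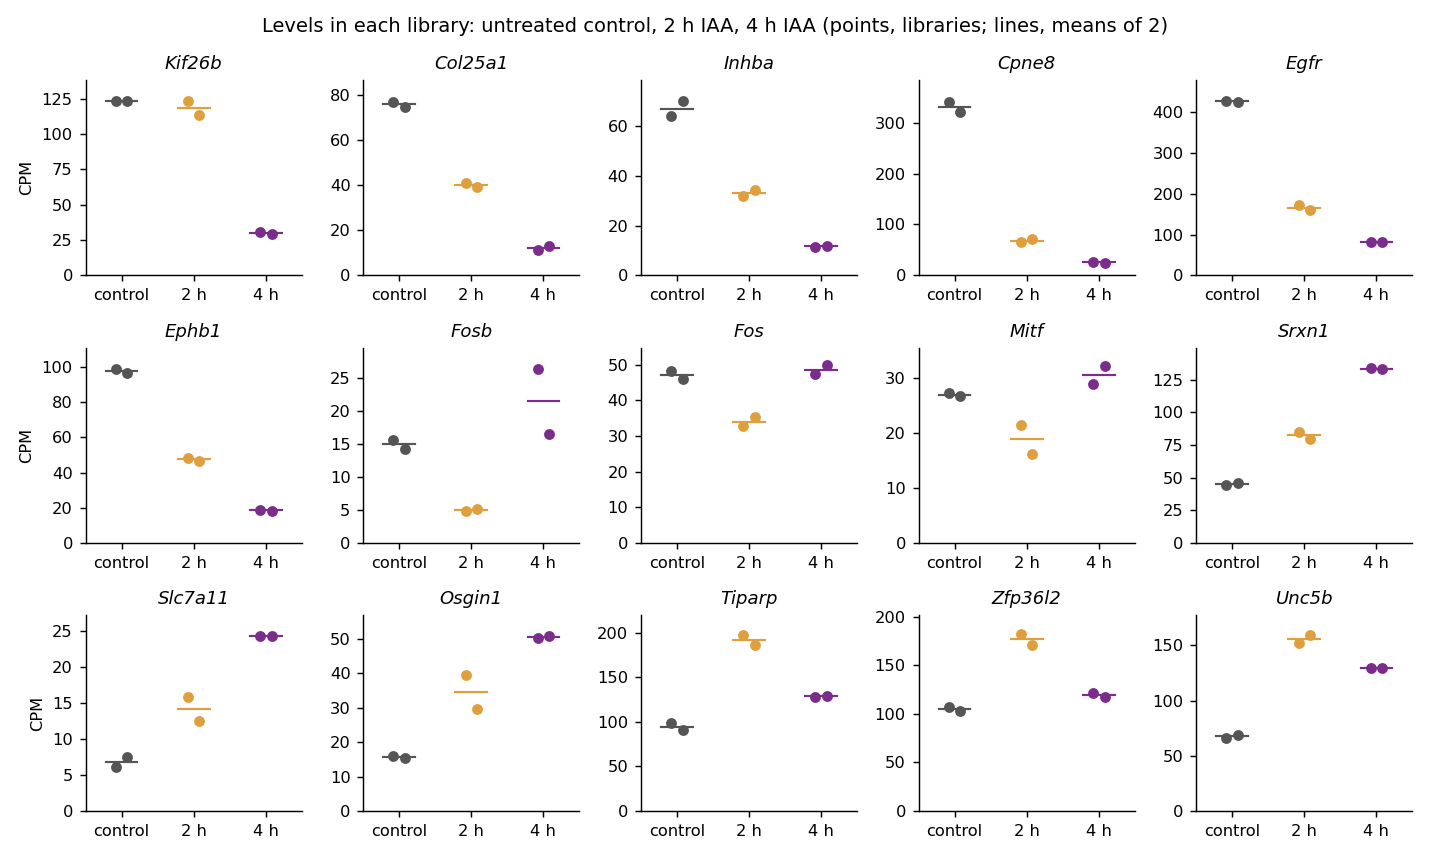
Level of 15 genes in CPM (y axis, from 0) in each library of the controls, 2 h IAA and 4 h IAA (x axis); points are libraries, lines are group means. Kif26b stays at control level at 2 h and drops at 4 h, Fosb dips at 2 h and returns, Srxn1 climbs at each step, and Tiparp and Zfp36l2 peak at 2 h.

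The 322 downregulated genes were placed by their level at 2 h relative to the controls, with lower or higher meaning at least 1.3-fold. These placements reuse the 2 h libraries of the direct contrast and are a description. At 2 h, 191 of the 322 were already lower than in the controls, 102 were within 1.3-fold and 29 were higher, whereas 11.4% of all 15769 genes tested in each of these fits were lower and 4.91% were higher. The 191 had a median log2 fold change of -0.74 at 2 h and -1.45 at 4 h against the controls. That all 191 were at least 1.3-fold lower at 4 h follows from how they were selected. Of the 102, 80 were lower than the controls at 4 h and 22 were within 1.3-fold. Of the 29, 10 were still higher at 4 h, 17 were within 1.3-fold and 2 were below. Among the 132 upregulated genes, 13 had been lower at 2 h (9.85%), 95 within (72.0%) and 24 higher (18.2%). Over all genes these shares were 11.4%, 83.7% and 4.91%. Of the 13, 11 were back within 1.3-fold of the controls at 4 h and 2 were above. That all 24 were higher at 4 h again follows from their selection. Thus continued falls formed the largest class of decreases. Most increases were within 1.3-fold of the controls at 2 h, but that share was below the one over all genes. Of these 95, 23 were upregulated and 6 downregulated at 1 h.

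**Figure D3:**
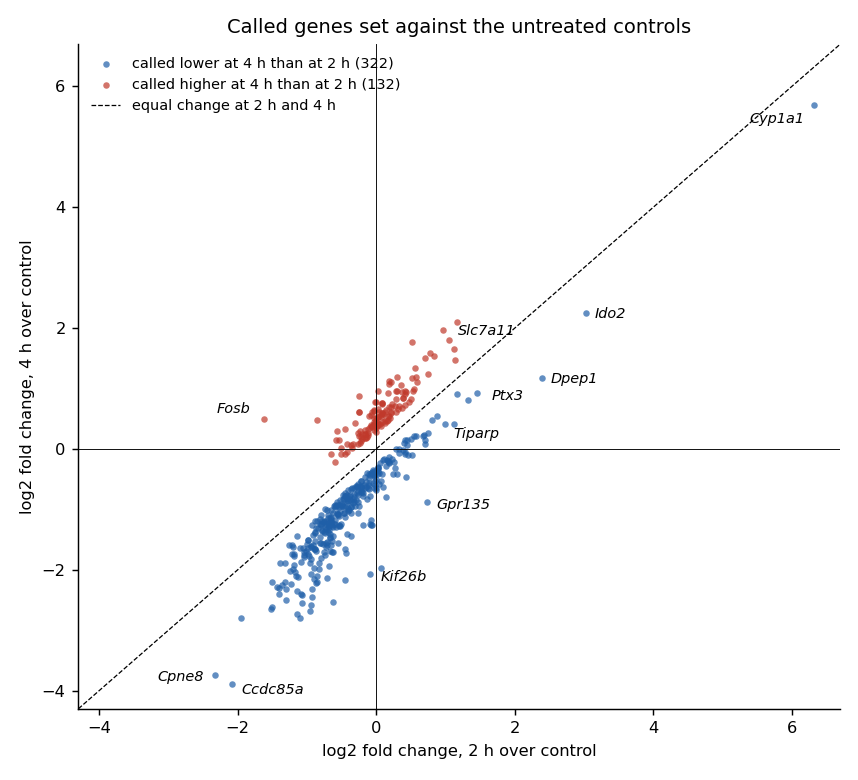
Log2 fold change of 2 h over control (x axis) and 4 h over control (y axis) for the called genes, upregulated in red and downregulated in blue. The dashed line marks equal change at both times. Both axes share the control libraries, and the calls use the 2 h and 4 h libraries, so the side of the line is fixed by the call, while the position along it is not.

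The downregulated genes were more often long, although short ones such as Inhba were among them. The 322 downregulated genes had a median length of 113 kb and the 132 upregulated genes of 35 kb, against 24 kb for all genes tested. Among genes over 240 kb, 100 of 690 were downregulated (14.5%) and 4 upregulated (0.58%). The downregulated share was 3.87% (74 of 1912) from 90 to 240 kb, 1.29% from 30 to 90 kb, 0.889% from 10 to 30 kb and 1.13% under 10 kb. The class already lower at 2 h had a median length of 202 kb, those within 1.3-fold at 2 h 48.9 kb, and those higher at 2 h 17.9 kb. A polymerase needs longer than the time treated to cross the longest genes, so in counts over the whole gene body the reads of a long gene can include transcription that began before a change at the promoter. What part of the late decreases in long genes came from that was not tested. The median log2 fold change of all genes over 240 kb was -0.06, and it was 0.01 without 2 h replicate 1 and -0.13 without 2 h replicate 2. A trend with length was also fitted to the 4 h over 2 h changes themselves and removed from the 4 h libraries. With it removed, 69 genes over 240 kb were downregulated.

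**Figure D4:**
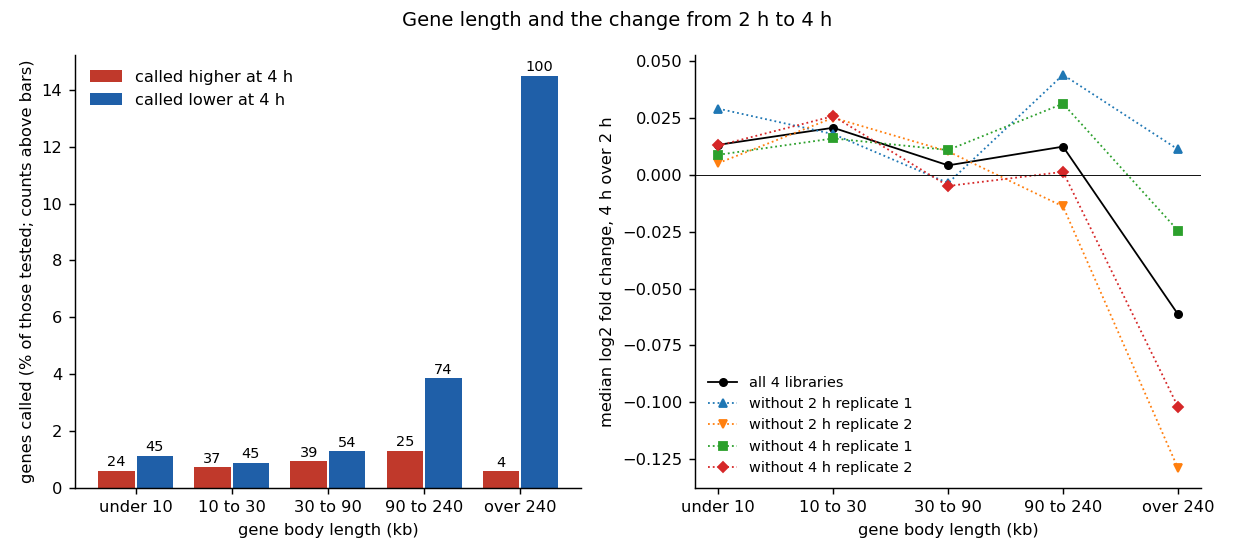
Left, the share of genes called in percent (y axis) by gene length in kb (x axis), downregulated and upregulated, with the counts above the bars. Right, the median log2 fold change of 4 h over 2 h by length with all 4 libraries and with each left out. The downregulated share is 14.5% over 240 kb and under 4% in each shorter bin, while the median over 240 kb turns sign without 2 h replicate 1.

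Fosb and Fos belong to the AP-1 family, the transcription factors that growth signals switch on within minutes. Both were lower at 2 h than in the controls and higher again at 4 h. The same 2 h libraries enter both steps. Fosb (chr7:19302696-19310051) was at 15.5 and 14.3 CPM in the controls, 4.82 and 5.15 CPM at 2 h, and 26.3 and 16.5 CPM at 4 h. Both 4 h libraries lay above the 2 h libraries and the controls, although they differed from each other by more than the other pairs did. The change from 2 h was 4.35-fold, the largest increase called (log2 fold change 2.12 ± 0.22, adjusted p = 0.00046). Fos (chr12:85473890-85477273) dipped from 48.1 and 46 CPM to 32.8 and 35.3 CPM and stood at 47.4 and 49.9 CPM at 4 h (0.53 ± 0.08, adjusted p = 0.0063). Mitf, a transcription factor of pigment cells, showed the same order as Fos, at 27.2 and 26.6 CPM, then 21.4 and 16.2 CPM, then 28.8 and 32.1 CPM (0.68 ± 0.13, adjusted p = 0.017).

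Of 29 immediate early genes tested, 6 were upregulated and 3 downregulated from 2 h to 4 h, with a median of 0.21. Against the controls, 3 of the list were upregulated and 6 downregulated at 2 h, where 5.35% and 9.21% of all genes were, and 14 and 5 at 4 h, where 18.4% and 21.1% were. Arc, an activity-regulated gene of neurons, was at 5.93 and 6.17 CPM in the controls, 8.15 and 5.9 CPM at 2 h, and 13.2 and 13.7 CPM at 4 h (0.90 ± 0.16, adjusted p = 0.014). Jun, the partner of Fos in AP-1, went from 111 and 95.5 CPM to 144 and 137 CPM (0.45, adjusted p = 0.013), and Egr3 from 21.5 and 18 CPM to 29.7 and 29.2 CPM (0.57, adjusted p = 0.018). The 2 groups of libraries did not overlap in any of these 3 genes. Jun and Egr3 each had adjusted p = 0.061 without 4 h replicate 1. Mafk, a small Maf factor, rose from 37.7 and 34.5 CPM to 50.5 and 52.6 CPM (0.52, adjusted p = 0.0065). Fosl2, another AP-1 gene, moved the other way, from 60 and 61.3 CPM in the controls to 85.6 and 81.2 CPM at 2 h and back to 59.9 and 59.6 CPM at 4 h (-0.47, adjusted p = 0.0028).

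Some antioxidant genes rose further after 2 h. NRF2 is a transcription factor that switches on genes for glutathione and thiol repair when cells meet oxidants or electrophiles. In a list of its known targets, added after values of these data were seen, 7 of 27 were upregulated from 2 h to 4 h and none was downregulated (median 0.17). Against the controls, 21 were upregulated at 2 h and 25 at 4 h, with medians of 0.43 and 0.69. Over all genes 5.35% and 18.4% were upregulated at these times. In the direct contrast, 4 to 15 of the list were upregulated when single libraries were left out.

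The promoters of Srxn1 and Osgin1, the members whose windows held the motif TGACTCA of AP-1 and NRF2-related factors, are shown as the 250 bases before the RefSeq start in GRCm38.p6, plus strand, at chr2:152105274-152105523 and chr8:119436897-119437146. Capitals mark TGACTCA or its reverse complement TGAGTCA.
Srxn1: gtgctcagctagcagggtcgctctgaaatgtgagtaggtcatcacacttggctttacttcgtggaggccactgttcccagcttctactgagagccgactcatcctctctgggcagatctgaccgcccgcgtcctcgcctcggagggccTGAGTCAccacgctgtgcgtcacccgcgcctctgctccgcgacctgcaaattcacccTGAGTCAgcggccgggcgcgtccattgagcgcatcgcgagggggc
Osgin1: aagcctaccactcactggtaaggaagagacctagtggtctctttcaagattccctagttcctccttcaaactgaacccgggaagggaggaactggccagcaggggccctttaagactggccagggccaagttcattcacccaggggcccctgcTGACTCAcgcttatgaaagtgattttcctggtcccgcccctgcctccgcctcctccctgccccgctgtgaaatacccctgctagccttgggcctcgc

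Srxn1, which encodes sulfiredoxin, held the motif at 102 and 45 bases before the start. Its level was 44.1 and 45.7 CPM in the controls, 85.2 and 79.7 CPM at 2 h, and 134 and 133 CPM at 4 h, so that each group lay above the one before. The increase from 2 h was 1.63-fold (log2 fold change 0.70 ± 0.07, adjusted p = 0.00024). Osgin1, an oxidative stress-induced gene, held it at 97 bases and was at 15.8 and 15.4 CPM, then 39.6 and 29.6 CPM, then 50.2 and 50.9 CPM (0.53 ± 0.11, adjusted p = 0.031). Slc7a11, the cystine transporter that feeds glutathione synthesis, was at 6.1 and 7.42 CPM, then 15.8 and 12.6 CPM, then 24.2 and 24.2 CPM (0.76 ± 0.12, adjusted p = 0.0070). Trim16 went from 78.4 and 75.4 CPM to 109 and 104 CPM and to 152 and 150 CPM (0.51 ± 0.06, adjusted p = 0.0017). Gclc, the catalytic subunit of the enzyme that starts glutathione synthesis, made most of its change before 2 h, from 93.6 and 94.4 CPM to 224 and 201 CPM, and was at 273 and 262 CPM at 4 h (0.34, adjusted p = 0.036). Its adjusted p was 0.44 without 4 h replicate 1, and that of Gsr, glutathione reductase (63.9 and 64.2 CPM, then 91.3 and 81.8 CPM), was 0.17. The adjusted p of Gclc was 0.22 without 4 h replicate 2.

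TGACTCA, read on both strands within 250 bases before to 50 after the start, was held by 9 of the 80 upregulated genes that matched a RefSeq window (11.2%), A4galt, Arhgap18, C77080, Ddit3, Kat2b, Lrrc8b, Osgin1, Plaur and Srxn1. Of these, A4galt, Ddit3 and Kat2b lost their calls without 4 h replicate 1. It was held by 3 of 209 downregulated genes (1.44%), by 3.41% of the 11113 tested genes with a window and by 5.2% of all 32851 windows. The other motifs searched were TATAAA, held by 8.75% of upregulated and 12% of downregulated genes against 6.86% of tested genes, the dioxin response core GCGTG (48.8%, 45.5% and 51.5%), the E-box CACGTG (10.0%, 9.57% and 9.98%) and the CRE TGACGTCA (0 of 80, 3.83% and 3.16%). Over all windows these were 13.6%, 32.4%, 7.15% and 1.79%. The matches are a description of letters in these windows. None of the motifs contains another.

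Several further genes were higher at 4 h than at 2 h. Scml4, a Polycomb-related gene, was at 21.6 and 18.2 CPM at 2 h and 37.5 and 36.5 CPM at 4 h (0.89 ± 0.10, adjusted p = 0.0010), with both 4 h libraries above both 2 h libraries. Spred3, an inhibitor of Ras signalling, went from 42.1 and 45.4 CPM to 61 and 60.7 CPM (0.49 ± 0.08) from control levels of 40 and 38.1 CPM, and was the 1 gene called of 14 in the list of ERK feedback genes. Ccl2, a chemokine gene, was at 32.8 and 26.5 CPM and then 57.1 and 50.5 CPM (0.85, adjusted p = 0.0014), but it lies within the counted gene Gm17268 of the other strand, so its reads are uncertain. Ddit3, a transcription factor of the integrated stress response, was at 46.9 and 40.7 CPM at 2 h and 58.3 and 58.3 CPM at 4 h (0.41, adjusted p = 0.026), with adjusted p = 0.10 without 4 h replicate 1 and 0.097 without replicate 2.

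Some genes that had risen by 2 h receded. The aryl hydrocarbon receptor (AhR) is a ligand-activated transcription factor that binds the core GCGTG, and indole compounds are among its ligands. The 250 bases before the RefSeq starts of 2 of its targets are shown, Cyp1a1 at chr9:57697363-57697612 and Tiparp at chr3:65528197-65528446, GRCm38.p6, plus strand. Capitals mark GCGTG or its reverse complement CACGC.
Cyp1a1: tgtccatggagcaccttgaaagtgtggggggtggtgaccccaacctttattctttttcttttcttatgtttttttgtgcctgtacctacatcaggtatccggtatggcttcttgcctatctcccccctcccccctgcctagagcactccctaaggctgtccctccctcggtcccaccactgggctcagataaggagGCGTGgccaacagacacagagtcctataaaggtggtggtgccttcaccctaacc
Tiparp: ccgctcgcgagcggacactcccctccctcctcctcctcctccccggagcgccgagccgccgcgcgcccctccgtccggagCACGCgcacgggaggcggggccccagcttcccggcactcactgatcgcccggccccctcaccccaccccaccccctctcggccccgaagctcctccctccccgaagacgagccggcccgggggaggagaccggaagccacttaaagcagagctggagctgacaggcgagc

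The core was held by 51.5% of tested genes with a window and by 45.5% of downregulated ones, so a match alone does not mark a target. Cyp1a1, a xenobiotic-metabolising enzyme, held the core at 54 bases before the start. It was at 0.218 and 0.193 CPM in the controls, 18.6 and 15.9 CPM at 2 h, and 9.85 and 12.5 CPM at 4 h. Both treated groups lay far above the controls, and the 4 h libraries lay below the 2 h libraries (log2 fold change -0.63 ± 0.15, adjusted p = 0.038), with adjusted p = 0.36 without 4 h replicate 1. Tiparp, a feedback inhibitor of AhR with the core at 170 bases, was at 98.3 and 90.7 CPM, then 198 and 187 CPM, then 128 and 129 CPM (-0.57 ± 0.07, adjusted p = 0.00066). Ahrr, the AhR repressor, was at 2.01 and 1.78 CPM, then 8.04 and 6.18 CPM, then 4.82 and 4.9 CPM, with adjusted p = 0.16 for the last step. Of the 10 AhR genes tested, 2 were downregulated from 2 h to 4 h and none upregulated (median -0.07, and 0.05 without 2 h replicate 1). Against the controls, 6 of the 10 were upregulated at 2 h (median 0.78) and 8 at 4 h (median 0.45). The upregulated shares over all genes were 5.35% and 18.4%.

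Zfp36l2, an RNA-decay factor, was at 108 and 103 CPM in the controls, 183 and 171 CPM at 2 h, and 122 and 117 CPM at 4 h (-0.56 ± 0.07, adjusted p = 0.00094). Fzd4, a Wnt receptor, showed the same return, with 22.2 and 23.9 CPM, then 37.2 and 40.5 CPM, then 27 and 22.7 CPM. Maf, a transcription factor, was at 38 and 37.2 CPM, then 58.9 and 51.2 CPM, then 37.4 and 34.3 CPM (-0.62 ± 0.09). Lrp4 was at 44.2 and 44 CPM, then 59.1 and 62.6 CPM, then 43.1 and 42.2 CPM (-0.50 ± 0.07). In Maf and Lrp4 the 4 h libraries lay at or below the level of the controls. Olig2, an NPC transcription factor, had the same course at 36.1 and 37.6 CPM, then 46.6 and 52.8 CPM, then 36.3 and 38.2 CPM (-0.40, adjusted p = 0.027, 0.20 without 4 h replicate 1 and 0.059 without replicate 2). Of 32 NPC transcription factors, 3 were downregulated and none upregulated (median -0.16), with 1 downregulated without 4 h replicate 1, 0 without 4 h replicate 2 and 15 without 2 h replicate 2.

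Hedgehog signalling contributed genes of both kinds. Of the 12 tested, 4 were downregulated, Ptch1, Hhip, Boc and Gas1, and none upregulated (median -0.08), against 2.02% and 0.828% over all genes. Ptch1, the Hedgehog receptor and a target of the pathway, was at 350 and 351 CPM in the controls, 654 and 606 CPM at 2 h, and 496 and 505 CPM at 4 h (-0.32 ± 0.07, adjusted p = 0.033), above the controls at both times. It lost this call without either 4 h library, and Gas1, a co-receptor, lost its call without 4 h replicate 2 (adjusted p = 0.44). Hhip, which binds Hedgehog ligands, moved further down, from 28.6 and 30.2 CPM to 11.9 and 14.2 CPM and then 6.96 and 5.77 CPM (-1.01), and so did the co-receptor Boc, from 380 and 376 CPM to 233 and 225.8 CPM and then 154 and 143 CPM (-0.62, adjusted p = 0.00051).

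In the cholesterol synthesis list, 14 of 24 genes were upregulated at 2 h against the controls (median 0.29). At 4 h 15 were (median 0.13), while over all genes 5.35% and 18.4% were upregulated at these times. In the direct contrast 2 of the list were downregulated and none upregulated (median -0.15). Msmo1, a sterol oxidase, was at 110 and 113 CPM, then 162 and 151 CPM, then 127 and 126 CPM (-0.30, adjusted p = 0.025). Neither of the 2 calls held without either 4 h library. Of 26 Hox genes, a list added after values were seen, 2 were downregulated (median -0.21), and 0 with DESeq2 or without 4 h replicate 2. Of 29 imprinted genes, also added afterwards, 6 were downregulated and none upregulated (median -0.21). Peg3 was at 653 and 725 CPM in the controls, 506 and 642 CPM at 2 h, and 368 and 366 CPM at 4 h (-0.63, adjusted p = 0.0049), and Plagl1, a zinc finger factor, at 305 and 327 CPM, then 220 and 286 CPM, then 172 and 160 CPM (-0.60). H19 was at 694 and 861 CPM, then 751 and 1225 CPM, then 606 and 585 CPM (-0.72, adjusted p = 0.038), but its adjusted p was 0.46 with DESeq2. In all 3 the 2 h replicates differed widely, with replicate 2 the higher.

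No gene was called in the lists of cohesin subunits and CTCF (15 genes), p53 targets (23), Notch (15), interferon response (15), endoplasmic reticulum chaperones (18), heat shock (14), S phase (28), G2/M (34) and ribosomal proteins (33). The ribosomal proteins had a median of -0.10, which was 0.07 without 2 h replicate 1, and -0.21 without 2 h replicate 2, where 21 of them were downregulated. Of 26 ribosome biogenesis and Myc-related genes, 3 were downregulated (median -0.20; 1 and 0 without 4 h replicate 1 and 2), Dkc1 among them at 41.4 and 41.9 CPM at 2 h and 30.7 and 27.9 CPM at 4 h (-0.50, adjusted p = 0.0094, and 0.10 without 4 h replicate 2). Of the astrocyte markers only Gja1, a gap junction protein, was called, at 172 and 196 CPM and then 124 and 126 CPM (-0.55, adjusted p = 0.0019). Of the 7 genes the study itself singled out that were tested, 3 were downregulated. Tnfrsf21 was at 215 and 208 CPM in the controls, 101 and 126 CPM at 2 h, and 68.1 and 72.6 CPM at 4 h (-0.68, adjusted p = 0.0026). Gli3 was at 930 and 752 CPM and then 764 and 809 CPM, with overlapping libraries and adjusted p = 0.68. Myc was at 36 and 33.1 CPM and then 30.6 and 27.3 CPM (adjusted p = 0.20). The study chose these genes on libraries of this series, so their direction is not independent evidence.

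The A-485 and 1 h IAA libraries share none with the direct contrast, and both were counted over the first 90 kb of each gene and compared with controls counted likewise. Over all genes tested there, 35.3% were downregulated by A-485 and 20.2% at least 2-fold. Of 319 genes downregulated from 2 h to 4 h that were tested with A-485, 272 (85.3%) were at least 2-fold downregulated by the inhibitor, as were 79 of the 132 upregulated genes (59.8%) and 3146 of 15645 of all tested in both (20.1%). The median log2 fold changes under A-485 were -2.70, -1.21 and -0.11. Grouped by the response to A-485, 0.239% of the 9212 genes lowered less than 1.2-fold were downregulated from 2 h to 4 h, and 15.3% of the 1453 genes lowered over 4-fold. The upregulated share went from 0.141% to 2.82% between the same classes. The difference between the classes was present within lengths. Over 240 kb it was 84 of 255 (32.9%) in the most sensitive class against 1 of 120 in the least, and under 10 kb 21 of 251 (8.37%) against 10 of 2639 (0.379%).

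**Figure D5:**
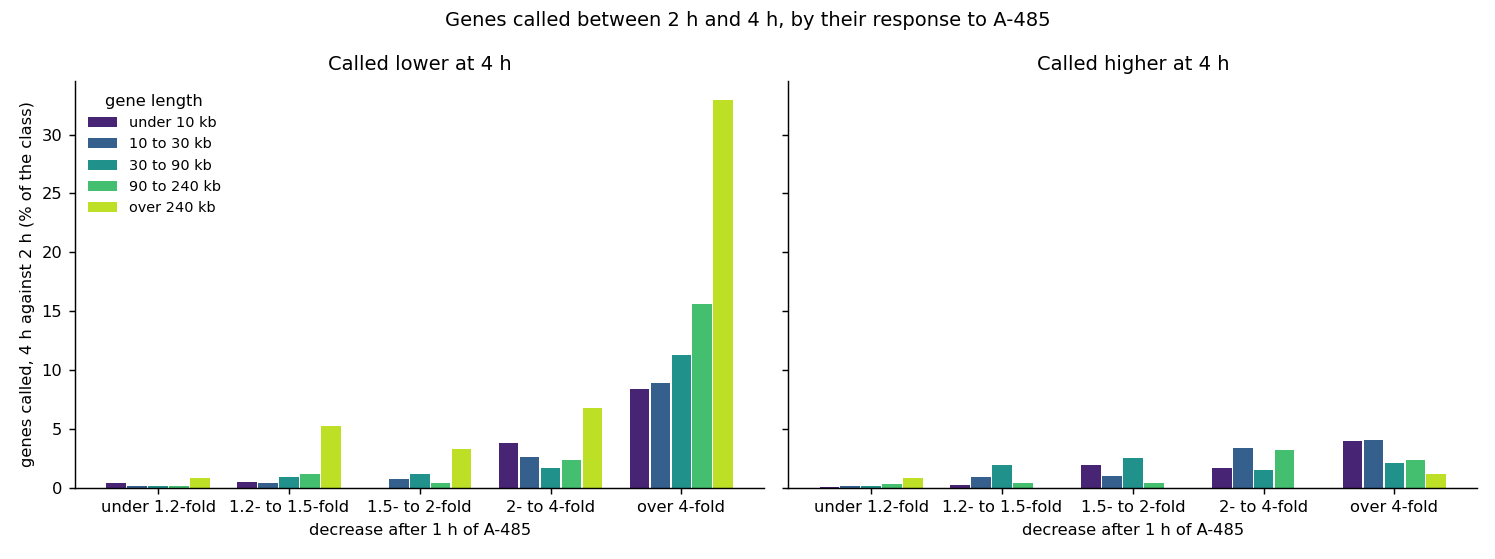
Share of genes downregulated (left) and upregulated (right) from 2 h to 4 h, in percent (y axis), by the fold by which 1 h of A-485 lowered them and by gene length in kb. The downregulated share is highest in the class lowered over 4-fold, and within that class in genes over 240 kb (32.9%).

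At 1 h of IAA, 8.34% of genes were upregulated and 7.4% downregulated against the controls. Of the 1164 genes downregulated at 1 h and tested here, 115 (9.88%) fell further from 2 h to 4 h and 8 (0.687%) rose. Of the 1321 upregulated at 1 h, 74 (5.6%) fell and 37 (2.8%) rose. The 29 decreases that had been higher at 2 h had a median log2 fold change of 0.87 at 1 h, and 27 of them were upregulated then. Folds at 1 h and at 2 h were taken over the same 2 control samples. Classes set by the level at 2 h are therefore not independent of the 1 h values. Cyp1a1 stood at a log2 fold change of 6.56 against the controls at 1 h, Tiparp at 2.24, Zfp36l2 at 1.5 and Fosl2 at 1.37, each above its value at 2 h. The bodies of these genes are shorter than 90 kb, so the counting window covered them whole. Kif26b, at control level at 2 h over its whole length, was at 0.60 at 1 h over its first 90 kb. The 102 decreases within 1.3-fold at 2 h had a median of 0.04 at 1 h, with 35 of 101 upregulated and 9 downregulated. The 191 already lower had a median of -0.30, with 106 downregulated. The 13 increases that had been lower at 2 h had a median of -0.155, with 2 downregulated and 0 upregulated.

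In RAD21-AID mESC at 4 h, where 31% of genes were upregulated and 27.4% downregulated over 24 libraries, the genes downregulated in NPC between 2 h and 4 h had a median log2 fold change of 0.03 (246 tested) and those upregulated of 0.00335 (108 tested), against 0.02 for all genes. Of the former, 38.6% were downregulated and 32.1% upregulated in mESC, and of the latter 38% and 35.2%, beside 28.3% and 29.9% of the genes tested in both. Plxna4 was among the NPC decreases lowered in mESC, at -1.17.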

How the data were processed

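EU-seq was measured in RAD21-AID NPC. Per the study's methods and processing notes, the authors trimmed reads with cutadapt, aligned them to mm10 with BWA, filtered them with SAMtools (1.4), removed ribosomal and transfer RNA regions with bedtools and counted reads with HTSeq over the gene body of a representative transcript. They deposited the unnormalized counts. Whether counting used strand is not given in the sources used here, so overlapping genes on opposite strands are uncertain (14 called genes lie within another counted gene, and 8 overlap a gene of the other strand over at least 50% of their body). The 1 h IAA and A-485 columns hold the first 90 kb of each gene. The methods name a limit of 240 kb for 2 h, but the 2 h columns carry no such limit in their names and were taken as whole gene bodies, like those of 4 h.

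From the counts, libraries were scaled by TMM and tested in edgeR (4.0.16, R 4.3.3) with the quasi-likelihood test on the 2 h and 4 h libraries alone, genes with a mean count above 20 in either group were kept, the median log2 fold change of expressed genes (at least 15 TPM) was subtracted (-0.01), and p-values were adjusted by Benjamini-Hochberg at 0.05. CPM levels use 1 TMM scaling over the control, 2 h and 4 h libraries. They are not per length and are not compared between genes. Folds against the controls, at 1 h, with A-485 and in mESC come from separate fits of the same kind. Replicate numbers do not pair the samples (correlation of deviations between 2 h and 4 h -0.0288). No replicate pair agreed within sampling noise. All NPC libraries carry the same batch label. Recovery of known changes was tested on simulated data. DESeq2 (1.42.0) served as an alternative. To remove a length trend, a loess curve of the change on length was fitted in R and entered as an offset in the edgeR fit.

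Genes named are the 12 largest called changes each way (libraries not overlapping, mean of at least 1 CPM, not within another counted gene), the 3 smallest p each way, up to 4 genes of smallest p per list, Rad21 and the genes the study named. Others, with the motif holders, were chosen after their values were seen. The members, the 28 gene lists and 3 lists added later (NRF2 targets, Hox and imprinted genes) were chosen with earlier results of these data known. Of the other lists, 2 of 20 integrated stress response genes rose and 1 fell, as did 2 and 1 of 25 chromatin genes, 1 and 1 of 17 NF-kB targets and 1 and 1 of 19 clock genes. In the Wnt list 1 of 24 genes fell, and in the hypoxia list 1 of 21. Positions follow mm10 (GRCm38), and promoter sequences are RefSeq's for GRCm38.p6, matched to the nearest start within 1000 bases. The values of 1 gene are not reported here.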

Additional observations from a re-analysis of the deposited data

How the results depend on the processing

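The counts of calls between 2 h and 4 h depended on the libraries more than on the scaling. In place of 454 genes (132 upregulated, 322 downregulated), 1024 (352 and 672) were called with no count filter, 748 (253 and 495) with the controls in the fit and 882 (305 and 577) with the replicate number as a block, although the numbers do not pair the samples. Leaving out 1 library gave 247 to 2951 genes (62 to 1259 upregulated and 185 to 1692 downregulated), low without a 4 h library and high without a 2 h library. DESeq2 called 379, RLE factors 476, upper-quartile factors 443 (167 upregulated, 276 downregulated), a mean count above 100 gave 398 and removal of the length trend 430. No called gene that could be tested changed sign in any of these. Against the controls, 1163 to 4852 genes were called at 2 h (2328 with all libraries) and 5092 to 5636 at 4 h (6383 with all, 4080 with DESeq2) when a library was left out or the tool changed as named. With no count filter the length medians were 0.0377 under 10 kb, 0.0348 from 10 to 30 kb and 0.0148 from 30 to 90 kb, and leaving out a library gave 0.00516 to 0.0291 under 10 kb. Among called genes of at least 2-fold, the A-485 medians were -3.36 (downregulated) and -1.44 (upregulated), and the 1 h IAA medians -0.305 and 0.397. The list counts under each alternative were added after seeing the data. With 2 libraries a group, changes in genes of few counts were not detectable unless large.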
